A study of Mus musculus with 22 samples.

Results

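The guanylate-binding protein genes are a family of large interferon-induced GTPases. The 10 genes described are Gbp2 to Gbp11, all those on a fixed list of symbols, and all 10 were found among the 46882 genes of the table. The rule uses no measured value. RNA was measured in 16 libraries from 6 groups. MC38 is a colon adenocarcinoma line from C57BL/6 mice, and 2 libraries held the cells at day 0. Normal skin, labelled as wild-type tissue of day 23, gave 2 libraries. Tumors grown from MC38 cells under the skin of C57BL/6N wild-type mice gave 3 libraries of day 23 and 3 of day 46, and tumors from RAG1-/- mice of strain B6.129S7-Rag1tm1Mom/J, which cannot make mature T or B cells, gave 3 of day 13 and 3 of day 23. All hosts were female and 8 to 12 weeks old, the line was the same in every tumor, and each tumor was cut into pieces of which only some gave RNA. Nothing states that the MC38 libraries came from separate cultures, so p-values against them may measure technical spread.

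In infected cells, guanylate-binding proteins assemble on the membranes of microbes and of the vacuoles that hold them, and help to open these vacuoles and to start inflammasome signaling. Most cells make little of them until interferon, above all interferon-gamma from T cells and NK cells, acts on them through its receptor and factors such as IRF1. In tumors, transcripts of these genes are widely used as readouts of that signal, and they can come from cancer cells, macrophages, endothelium and lymphocytes alike. In whole tissue, fewer cells that use a gene and less RNA per cell cannot be told apart.

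The genes lie in 2 clusters of the GRCm38 genome, by the GENCODE M21 annotation. Gbp5, Gbp7, Gbp3 and Gbp2 follow each other on the forward strand of chromosome 3 within 144.031 kb (chr3:142493978-142638008), and Gbp8, Gbp9, Gbp4, Gbp10, Gbp6 and Gbp11 lie on the reverse strand of chromosome 5 within 332.323 kb (chr5:105014150-105346472). Deletion of the chromosome 3 cluster is known to weaken defence of mouse cells against vacuolar parasites. Gbp11 is annotated as a polymorphic pseudogene and the other 9 genes as protein coding.

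RefSeq promoter windows, each of 250 bases before to 50 bases after a transcription start, were given for the 4 genes of chromosome 3. The bases before the start are shown because interferon acts through 2 short elements that can be read in them. No window was given for the other genes. Capitals mark each match on either strand to the core of the interferon-stimulated response element, searched as GAAA, any 2 bases and GAAA again, and to the gamma-activated site, searched as TTC, any 3 bases and GAA. No match of one element overlapped one of the other.
Gbp5 (chr3:142496684-142496933, forward strand, GRCm38.p6): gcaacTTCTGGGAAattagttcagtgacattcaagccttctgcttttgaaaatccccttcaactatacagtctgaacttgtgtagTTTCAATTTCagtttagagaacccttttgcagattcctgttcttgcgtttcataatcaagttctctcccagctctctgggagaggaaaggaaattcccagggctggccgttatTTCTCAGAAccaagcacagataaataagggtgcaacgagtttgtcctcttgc
Gbp7 (chr3:142530086-142530335, forward strand, GRCm38.p6): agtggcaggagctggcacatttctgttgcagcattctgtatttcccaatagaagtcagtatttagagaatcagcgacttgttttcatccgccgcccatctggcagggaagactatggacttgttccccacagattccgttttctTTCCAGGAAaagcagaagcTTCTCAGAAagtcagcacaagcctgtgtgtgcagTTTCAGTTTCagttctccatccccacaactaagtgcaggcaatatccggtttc
Gbp3 (chr3:142559794-142560043, forward strand, GRCm38.p6): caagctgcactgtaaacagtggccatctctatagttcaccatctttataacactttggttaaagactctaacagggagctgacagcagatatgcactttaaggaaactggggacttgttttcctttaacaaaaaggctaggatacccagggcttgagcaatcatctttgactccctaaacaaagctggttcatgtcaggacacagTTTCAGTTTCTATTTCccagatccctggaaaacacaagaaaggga
Gbp2 (chr3:142620413-142620662, forward strand, GRCm38.p6): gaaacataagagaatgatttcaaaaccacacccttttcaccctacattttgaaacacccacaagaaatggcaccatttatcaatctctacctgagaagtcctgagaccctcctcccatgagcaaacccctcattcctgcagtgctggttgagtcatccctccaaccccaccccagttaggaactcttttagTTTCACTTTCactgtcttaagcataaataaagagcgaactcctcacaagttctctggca
The response element core was present in 4 of the 4 genes, against 3.99% of the 27025 genes with a window, and in 4 of their 5 windows, since a second Gbp3 start held none. It began 53 bases before the start of Gbp7, 59 bases before that of Gbp2 and 165 bases before that of Gbp5, and Gbp3 held overlapping matches at 45 and 39 bases before its start. The gamma-activated site was present in Gbp5 and Gbp7, with 2 matches each, against 9.55% of all genes. A match is a description of these letters and not a measured binding site.

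Reads came from the 3′ ends of transcripts, so shared ends limit what can be assigned to a gene. For Gbp10, 100% of the 50-base stretches in the last 500 bases of the longest coding transcript also occurred in another gene, Gm43302, and for Gbp6 the share was 77.8%. It was 6.43% for Gbp4, 1.62% for Gbp5 and 0 for Gbp2, Gbp3, Gbp7, Gbp8, Gbp9 and Gbp11. Gbp10 was listed at 0 reads in all 16 libraries, where 3 reads would stand at 1.33 to 6.38 normalized counts (reads divided by the size factor of the library). Some end stretches of Gbp6 also occurred in Gbp10 and Gbp9, and some of Gbp10 in Gbp6. Given the shared ends, the values of Gbp10 and Gbp6 are uncertain, and reads of one may have been counted for the other. Gbp7 shares 11.3% of its exonic bases with Gm43802 on the same strand, and Gbp4, Gbp8 and Gbp9 share 0.814% to 1.77% with each other.

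**Figure D1:**
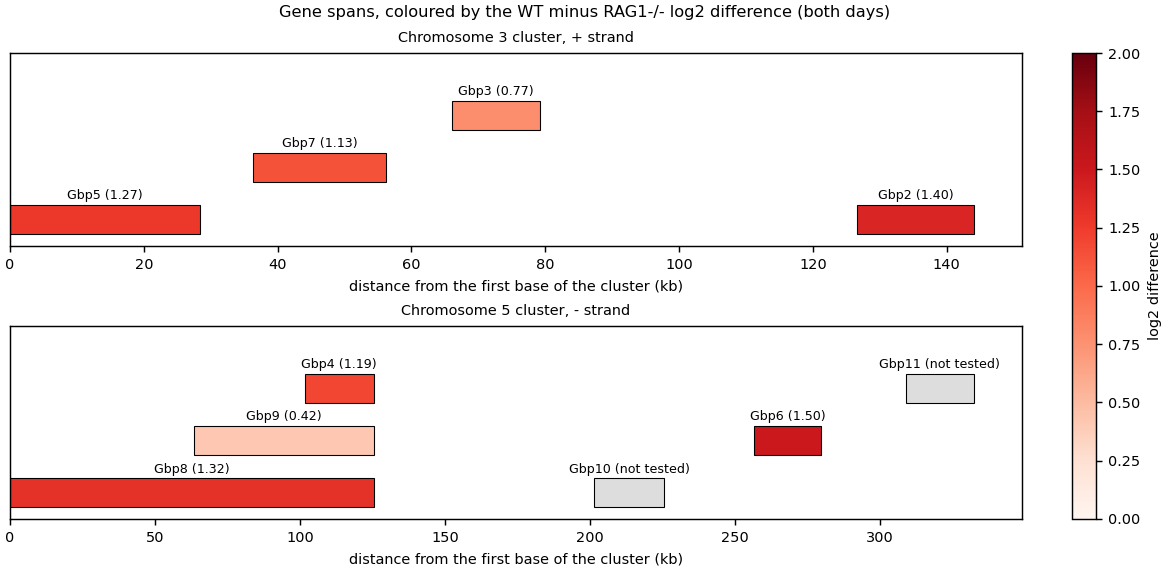
Gene spans of the 10 genes in the 2 clusters, by distance in kb from the first base of each cluster, coloured by the difference in log2(normalized count + 1) between wild-type and RAG1-/- tumors of both days (wild type minus RAG1-/-). Both days are days 23 and 46 in wild-type and days 13 and 23 in RAG1-/- tumors. Genes with positive differences stand in both clusters, from 0.42 for Gbp9 to 1.5 for Gbp6, and Gbp10 and Gbp11 (grey) were too low to be tested.

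Libraries held 5589151 to 26134241 reads on genes. The knocked-out gene did not follow the labels. Rag1 had 1 to 12 reads in 6 of 6 tumors labelled RAG1-/- and 1 read in 1 of 6 wild-type tumors, and since 3′ reads can lie outside the disrupted part, group names are those of the labels. The T cell markers followed the labels, with a summed level over 13 genes of 8.90 to 37.2 normalized counts in tumors labelled RAG1-/- and 94.8 to 394 in wild-type tumors, and Cd3e, Cd3g, Cd8b1 and Trac were at 0 in all 6 of the former. B cell markers overlapped, with a summed level over 7 genes of 42.6 to 153 in tumors labelled RAG1-/- and 114 to 461 in wild-type tumors. MC38 cells were nearly free of T cell and macrophage markers (summed 0.856 to 0.978 and 44.5 to 68.4), and also of colon epithelium markers, with Krt18, Krt19, Krt20 and Cdx2 at 0. Both skin libraries carried the Y-linked gene Ddx3y (1803 and 1919 normalized counts), while MC38 cells had 0 and tumors at most 1 read, so tissue and sex cannot be told apart in comparisons with skin.

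The 8 members with enough reads to be tested had their lowest mean in MC38 cells. Gbp2, whose protein is anchored to membranes by a lipid tail, had 90.7 and 80.2 normalized counts in the 2 MC38 libraries and 439 and 572 in skin. It had 779.8, 414 and 637 in RAG1-/- tumors of day 13 and 405, 513 and 967 in those of day 23, whereas wild-type tumors had 3585, 1419 and 2172 at day 23 and 518, 1250.2 and 1950.1 at day 46. Every tumor thus stood above both MC38 libraries, and 5 of the 6 wild-type tumors stood above all RAG1-/- tumors.

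Gbp7, which takes part in assembly of the phagocyte oxidase, had 69.3 and 64.5 normalized counts in MC38 cells and 394 and 744 in skin. It had 630.1, 454 and 444 in RAG1-/- tumors of day 13 and 475, 602 and 558 in those of day 23. In wild-type tumors it had 1875, 1010.2 and 1748 at day 23 and 784, 722 and 1200.4 at day 46. The 6 RAG1-/- tumors lay within a narrow band, and all 6 wild-type tumors lay above it.

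Gbp8 had 1.71 and 0.978 normalized counts in MC38 cells, 3 reads in all, and 32.1 and 62.5 in skin. It had 46.0, 36.7 and 32.4 in RAG1-/- tumors of day 13 and 53.7, 36.2 and 45.1 in those of day 23. In wild-type tumors it had 207, 110.0 and 95.1 at day 23 and 81.1, 92.7 and 77.9 at day 46. Here too the tumors of the 2 genotypes did not overlap, and the wild-type tumors of day 46 lay below all 3 of day 23.

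**Figure D2:**
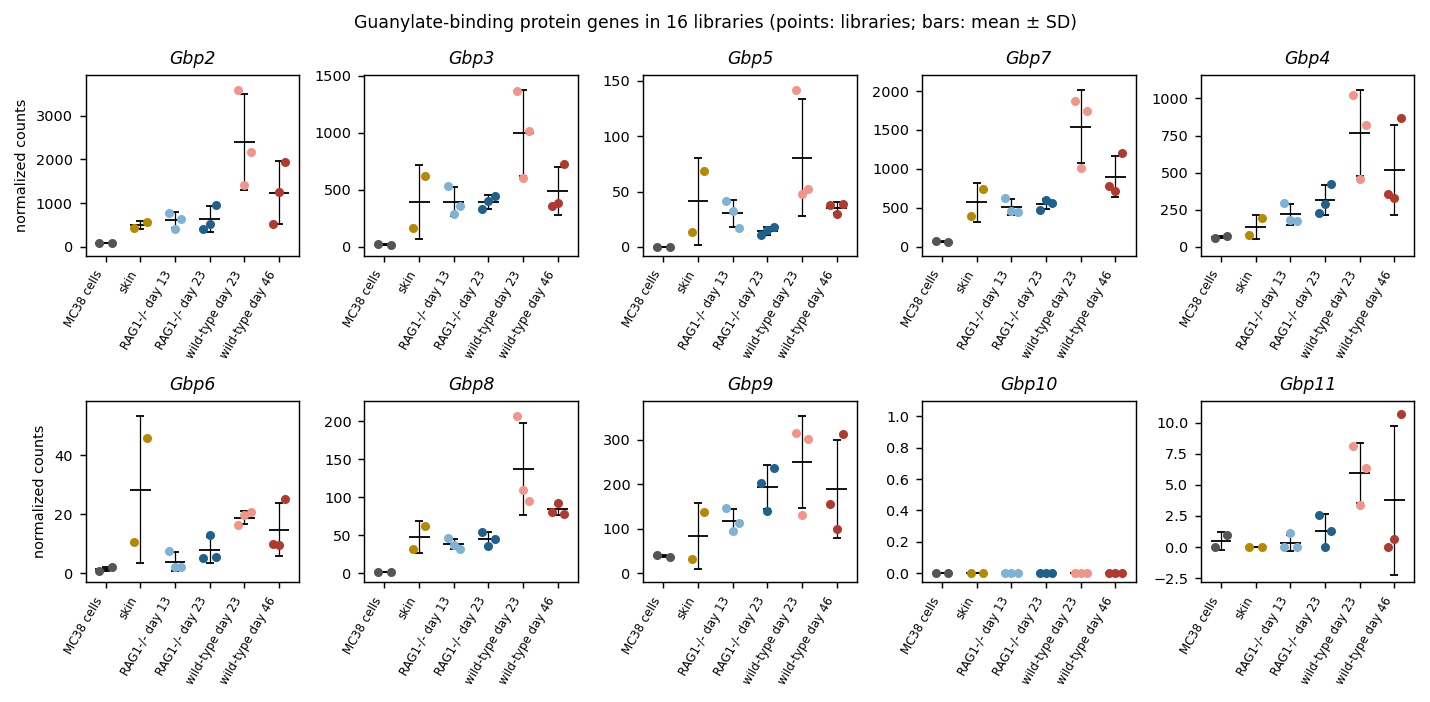
Normalized counts of the 10 genes (1 panel each, linear axes, each on its own scale) in MC38 cells, skin and the 4 tumor groups, with 1 point a library and bars for the mean ± SD (n = 2 or 3). MC38 cells are lowest or near lowest in each panel with reads, Gbp7 and Gbp8 show all 6 wild-type tumors above all 6 RAG1-/- tumors, and Gbp10 is at 0 throughout.

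The order of the group means was alike for several members. For Gbp2 and Gbp4 it ran from wild-type tumors of day 23 down through wild-type tumors of day 46, RAG1-/- tumors of day 23, RAG1-/- tumors of day 13, skin and MC38 cells. Neighbours in that order overlapped, except that MC38 cells stood apart below skin. For Gbp8 the ranges of wild-type tumors of day 23, wild-type tumors of day 46 and skin were apart from each other, and skin overlapped RAG1-/- tumors of day 23. For Gbp6 skin had the highest mean (28.3 ± 24.9 normalized counts, SD, n = 2) and overlapped wild-type tumors of day 23. MC38 cells had the lowest mean of all 8 tested members, and overlapped the group next above them in Gbp6 and Gbp9.

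The first comparison asked how tumors of wild-type hosts differed from tumors labelled RAG1-/-, over both days. These were days 23 and 46 in wild-type and days 13 and 23 in RAG1-/- tumors, so genotype and day cannot be told apart here. Host strain also differed with genotype, and cannot be told apart from it. Gbp7 and Gbp8 were higher in wild-type tumors. For Gbp7 the medians were 1105 normalized counts in wild-type and 516 in RAG1-/- tumors, and the means differed by 2.32-fold. The difference in log2(normalized count + 1), the scale of every log2 difference here, was 1.13 ± 0.17 (SE), with a limma adjusted p of 0.00543 after Benjamini-Hochberg correction over 14746 genes. For Gbp8 the medians were 93.9 and 40.9 normalized counts, the means differed by 2.65-fold and the log2 difference was 1.32 ± 0.23 (limma adjusted p = 0.0116). In both genes 6 of 6 wild-type tumors exceeded all RAG1-/- tumors (two-sided exact permutation p = 0.00216, the smallest that 6 against 6 allows).

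Of the 10 genes 8 averaged 5 normalized counts or more in the tumors and were tested, and 2 of these 8 were called higher at an adjusted p under 0.05, where 0.57% of all 14746 tested genes were. Groups did not overlap for the same 2 members, against 0.651% of genes with all wild-type tumors on top. All 8 log2 differences were above 0, and their median was 1.23 against 0.01 over all tested genes. Gbp2 and Gbp4 missed the threshold narrowly, with log2 differences of 1.40 ± 0.31 and 1.19 ± 0.26 and a limma adjusted p of 0.0501 each. Wild-type tumors ranged from 518 to 3585 normalized counts of Gbp2 and from 326 to 1024 of Gbp4, with medians of 1684 and 639, and RAG1-/- tumors from 405 to 967 and from 171 to 426, with medians of 575 and 260.3.

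For Gbp5, an activator of the NLRP3 inflammasome, wild-type tumors had 29.5 to 142 normalized counts with a median of 43.0 and RAG1-/- tumors 10.5 to 41.7 with a median of 17.6 (log2 difference 1.27 ± 0.33, limma adjusted p = 0.117). For Gbp6 the ranges were 9.40 to 25.1 and 1.91 to 12.8 (1.5 ± 0.44, limma adjusted p = 0.174), with the doubt over its reads given above. For Gbp3 they were 356 to 1362 and 290.2 to 536 (0.77 ± 0.22, limma adjusted p = 0.164). These 3 genes did not pass, and their ranges overlapped. Gbp9 differed least, at 98.7 to 314 in wild-type and 94.5 to 237 in RAG1-/- tumors (0.42, 95% confidence interval −0.18 to 1.02, limma adjusted p = 0.617). Gbp11 had 0 to 10.7 normalized counts in wild-type tumors and 0 to 2.62 in RAG1-/- tumors, at most 17 reads in a library, and was not tested.

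The number of members that passed depended on the method. It was 4 with edgeR on the recovered reads, which added Gbp2 and Gbp4, and 6 with DESeq2, while limma without a trend in the spread called 1. Gbp8 passed in 23 of 23 fits and Gbp7 in 22 of 23, and leaving out any of RAG1-/- day 23 replicate 3, wild-type day 23 replicate 2 or wild-type day 46 replicate 1 raised the count to 4. Gbp2b, which neighbours Gbp2 and is not on the list, had 2.93 to 64.2 normalized counts in wild-type and 0 to 12.8 in RAG1-/- tumors (3.38 ± 0.66, limma adjusted p = 0.0219). With a mean of 2.35 and 9 reads in 2 of 6 RAG1-/- tumors, it passed the filter only through the wild-type tumors. It could thus hardly come out lower, and at day 23 it was not called (3.43 ± 0.93, limma adjusted p = 0.15).

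**Figure D3:**
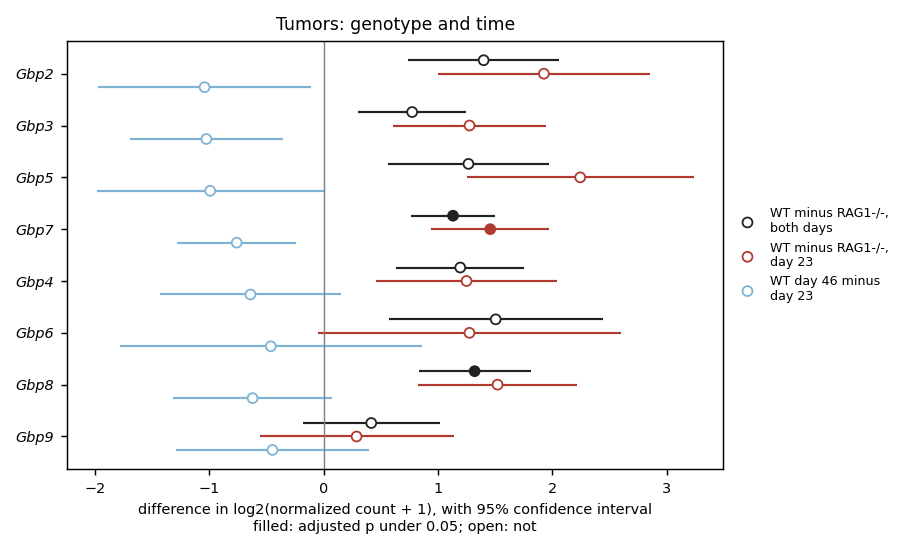
Log2 differences of the 8 tested genes with 95% confidence intervals for wild-type minus RAG1-/- tumors of both days (black), the same at day 23 (red) and wild-type tumors of day 46 minus day 23 (blue), where filled points have an adjusted p under 0.05. Black and red points all lie above 0, blue points all lie below 0, and only Gbp7 and Gbp8 (both days) and Gbp7 (day 23) are filled.

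At day 23, the only day sampled in both genotypes, the same direction was seen with 3 tumors a group. Gbp7 was the 1 member called, at 2.83-fold higher mean (log2 difference 1.46 ± 0.24, limma adjusted p = 0.0227), where 0.231% of genes were called higher. In 7 of the 8 tested members every wild-type tumor exceeded every RAG1-/- tumor, against 8.5% of genes, and Gbp9 was the exception with 314, 129.6 and 303 against 203, 140.4 and 237 normalized counts. The exact permutation p of each of the 7 was 0.1, the smallest that 3 against 3 allows. Gbp5 had 142, 47.7 and 52.3 against 10.5, 14.9 and 18.1 normalized counts, a log2 difference of 2.24 ± 0.47 (limma adjusted p = 0.0598). Gbp11, with 11, 4 and 4 reads against 2, 0 and 3, was too low to be tested. The call of Gbp7 was lost without RAG1-/- day 23 replicate 1 or 2 or wild-type day 23 replicate 1 or 3, and DESeq2 called 6 members. At day 23 summed T cell markers (13.1 to 34.5 in RAG1-/- and 159 to 394 in wild-type tumors) and dendritic cell markers (359 to 665 and 771 to 1211) were also apart, although limma called 1 of 8 and 0 of 3 tested genes of these lists. The median log2 difference of the tested genes was 3.60 for T cells but 0.04 for dendritic cells. T cell genes near 0 in RAG1-/- tumors could hardly come out lower in wild-type tumors. Epidermis markers summed to 392 to 480 and 384 to 1859. Their part in the differences was not tested.

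Within a genotype, time gave no call. Between wild-type tumors of day 46 and day 23 limma called 0 members and 0 genes of 14746 (0% in either direction), although 4 members and 1261 genes had an unadjusted p under 0.05, edgeR also called 0 members and 0 genes, and DESeq2 called 0 members and 43 genes. All 8 values were lower at day 46, with a median log2 difference of −0.70 against 0.00 over all genes, and the 2 with ranges apart were Gbp5 and Gbp8, where 5.44% of genes had all day 46 tumors below and 7.02% above. Gbp5 stood at 38.1, 29.5 and 38.3 normalized counts at day 46, below the 47.7 to 142 of day 23. Summed dendritic cell markers were also lower at day 46 (570 to 700 against 771 to 1211). Yet the 3 tested genes of that list had a median log2 difference of 0.40. Summed endothelial markers were higher (679 to 1238 against 474 to 572), and both sums had ranges apart. The tested T cell markers had a median log2 difference of −0.89 and those of epidermis −2.28. Limma called 0 genes of these lists. Their part was not tested.

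Between RAG1-/- tumors of day 23 and day 13 limma called 0 members and 0 genes (0%), with an unadjusted p under 0.05 for 0 members and 1722 genes, edgeR called 0 members and 0 genes, and DESeq2 0 members and 206 genes. All members overlapped there, against 9.48% of genes with every day 23 tumor above and 9.92% below, and Gbp2 and Gbp3 differed by −0.01 (95% confidence interval −0.94 to 0.92) and 0.02 (−0.64 to 0.69) on the log2 scale. Whether the change with time differed between the genotypes was not tested, since their days differ.

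The tumors were also compared with the MC38 cells from which they grew. Both comparisons share the 2 MC38 libraries. In RAG1-/- tumors 7 of the 8 tested members were higher than in MC38 cells, where 15.8% of 14708 genes were, and in wild-type tumors 8 of 8, where 18.3% were. All tumors stood above both MC38 libraries in 7 members in RAG1-/- and 8 in wild-type tumors, against 21.2% and 21.7% of genes. The median log2 difference was 2.86 in RAG1-/- and 4.12 in wild-type tumors, against 0.06 and 0.05 over all genes. These counts and medians include Gbp5, Gbp6 and Gbp8, which averaged 0, 1.41 and 1.34 normalized counts in MC38 cells. They passed the filter, a mean of at least 5, only through the tumors, so they could hardly come out lower.

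Gbp3 had 23.1 and 13.7 normalized counts in MC38 cells, so its RAG1-/- tumors stood 21.4-fold (log2 difference 4.36 ± 0.32, limma adjusted p = 6.44e-09) and its wild-type tumors 40.4-fold higher (5.14 ± 0.32, limma adjusted p = 6.08e-10). Gbp5 had 0 reads in both MC38 libraries, and with 3 reads a library as the floor it was at least 8.16-fold higher in RAG1-/- and at least 21.1-fold higher in wild-type tumors. Gbp8 rested on 3 MC38 reads, which gave ratios of 31.0 (95% Poisson interval 10.6 to 150.3) in RAG1-/- and 82.2 (28.1 to 399) in wild-type tumors, where the interval covers counting error only. The 1 member that overlapped was Gbp6, in RAG1-/- tumors.

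By the ratio of means the smallest increases were those of Gbp4 and Gbp9, which MC38 cells held at 61.6 and 69.4 and at 40.2 and 37.1 normalized counts. In RAG1-/- tumors they were 4.07-fold and 4.02-fold higher by the means, and in wild-type tumors 9.81-fold and 5.66-fold. Gbp6 in RAG1-/- tumors, with 1.91 to 12.8 against 0.856 and 1.96 normalized counts, was the 1 member not called (1.34 ± 0.63, limma adjusted p = 0.139). Macrophage markers moved with these comparisons, from a sum of 44.5 to 68.4 in MC38 cells to 16189 to 27803 in RAG1-/- and 22055 to 33483 in wild-type tumors over 10 genes, of which Adgre1, Mrc1 and Fcgr1 were at 0 in MC38 cells, and endothelial markers from 20.5 to 25.4 to 474 to 1238 in the tumors. Fibroblast markers moved too, from a sum of 5159 to 5803 in MC38 cells to 13668 to 49272 in the tumors, with 6 of 8 called higher in RAG1-/- and 7 of 8 in wild-type tumors. T cell markers were called higher in 1 of 8 tested genes in RAG1-/- and 7 of 8 in wild-type tumors, and B cell markers in 2 of 3 and 3 of 3. MC38 cells summed to 0.856 to 0.978 over the T cell genes and 0 to 1.71 over the B cell genes. Tumors could thus hardly come out lower in these genes, nor in other markers near 0 in MC38 cells. The part of all these markers in the differences was not tested.

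**Figure D4:**
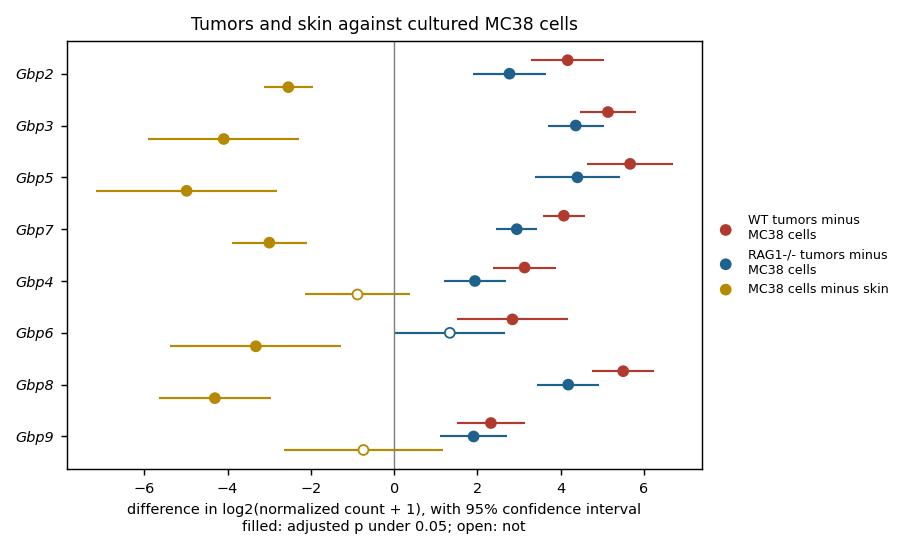
Log2 differences of the 8 tested genes with 95% confidence intervals for wild-type tumors minus MC38 cells (red), RAG1-/- tumors minus MC38 cells (blue) and MC38 cells minus skin (ochre), where filled points have an adjusted p under 0.05. Tumor points all lie above 0, from 1.34 for Gbp6 to 5.67 for Gbp5, and the points of MC38 cells minus skin lie below 0, with Gbp4 and Gbp9 open.

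Skin was the normal tissue of the study. In MC38 cells 6 of 8 members were lower than in skin, where 41.2% of 16780 genes were, and the median log2 difference was −3.16 against −0.40 over all genes. Both MC38 libraries lay below both skin libraries in 7 members, against 51.4% of genes. In this fit Gbp5, Gbp6 and Gbp8 passed the filter only through skin, since MC38 cells averaged 0, 1.41 and 1.34 normalized counts. Gbp2 and Gbp7 had the smallest errors, at −2.54 ± 0.22 and −3.00 ± 0.35 (limma adjusted p = 0.000755 and 0.0017). Gbp4 and Gbp9 were not called, with skin values of 76.4 and 192 and of 30.8 and 136 normalized counts. Differences of 2-fold could be missed here, though how often is not known. In simulated data 0 of 98 were recovered, but few genes were changed there, whereas 62.0% of genes were called here. The adjusted p is stricter where few genes change. The 2 skin libraries differed widely, and without skin replicate 2 the count of called members was 3. Markers of other cell types were lower in MC38 cells as well, with 12 of 12 tested T cell, 10 of 10 macrophage, 7 of 7 endothelial, 7 of 8 fibroblast and 8 of 8 epidermis genes called. In MC38 cells the T cell, macrophage and endothelial lists summed to 0.856 to 0.978, 44.5 to 68.4 and 20.5 to 25.4 normalized counts. Genes near 0 there passed the filter only through skin and could hardly come out higher. Summed epidermis markers were 308 to 321 in MC38 cells and 348270 to 354055 in skin. Their part was not tested.

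In wild-type tumors 5 of 8 members were higher than in skin (Gbp2, Gbp4, Gbp7, Gbp8 and Gbp9), where 22.8% of 16259 genes were. Gbp4 differed most among them, at 4.78-fold by the means (log2 difference 2.25 ± 0.43, limma adjusted p = 0.000476), and only Gbp4 and Gbp8 had all 6 tumors above both skin libraries, as 22.7% of genes did. Skin held more T cell marker RNA (1297 and 1308 normalized counts summed) than any wild-type tumor and fewer macrophage marker counts (12426 and 12976). Its epidermis and fibroblast sums were 348270 to 354055 and 359918 to 418241, against 228 to 1859 and 19103 to 49272 in wild-type tumors, where 8 of 8 and 6 of 8 of these genes were called lower. The part of these markers was not tested. The count rested on 1 library, since without skin replicate 1, the lower of the pair in all 8 tested genes, 1 member was called.

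The tested members varied together among the tumors. Each member was centred on its mean over the 12 tumors and the 8 were averaged. Wild-type tumors of day 23 stood at 1.43, 0.43 and 0.95 on the log2 scale, those of day 46 at −0.12, −0.09 and 0.77, RAG1-/- tumors of day 13 at −0.18, −0.89 and −0.91 and those of day 23 at −0.69, −0.46 and −0.25. All 6 wild-type tumors were thus above all 6 RAG1-/- tumors in this average, the 2 lowest of them by little. The pairwise Pearson r of the 28 pairs of members over the 12 tumors had a median of 0.79 and a range of 0.36 to 0.94. Within the 6 wild-type tumors the median was 0.69 and within the 6 RAG1-/- tumors 0.41, with single pairs as low as −0.47.

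**Figure D5:**
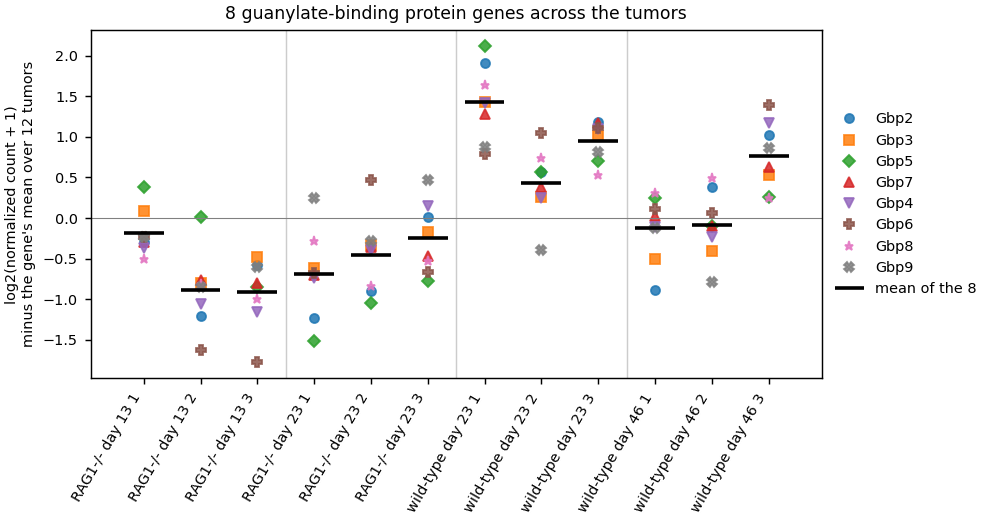
Log2(normalized count + 1) of the 8 tested genes in the 12 tumors, each gene centred on its own mean over the tumors, with a black bar for the mean of the 8. Wild-type day 23 replicate 1 has the highest bar (1.43) and RAG1-/- day 13 replicate 3 the lowest (−0.91), and the bars of all 6 wild-type tumors lie above those of the RAG1-/- tumors.

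Genes most like that average were sought among 12062 genes that averaged 20 normalized counts or more in the tumors. The 5 most alike were Igtp (Pearson r = 0.98 over 12 tumors, 1.00 over the 6 wild-type and 0.85 over the 6 RAG1-/- tumors), Irgm2 (0.98, 0.97 and 0.91), Iigp1 (0.94, 0.96 and 0.74), Tgtp2 (0.93, 0.98 and 0.53) and H2-T10 (0.93, 0.91 and 0.62). Of these, 4 are immunity-related GTPases, the other family of interferon-inducible vacuole-targeting GTPases, and H2-T10 is a nonclassical MHC class I gene. Irf1 ranked 13. The 12 points share the size factors and the split by genotype, and the values are a description.

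Other genes of the pathway were taken from lists, read over both days in wild-type against RAG1-/- tumors. In that comparison 0.57% of all 14746 tested genes were called higher, and the median log2 difference over all genes was 0.01. Of the 12 other interferon-inducible GTPases 10 were tested and 5 were higher in wild-type tumors, with a median log2 difference of 1.63. Iigp1 rose from a range of 135 to 299.5 normalized counts in RAG1-/- tumors to 899 to 3118 in wild-type tumors (2.77 ± 0.24, limma adjusted p = 2.48e-05). Tgtp1 (2.36 ± 0.44), Tgtp2 (2.07 ± 0.36), Igtp (1.72 ± 0.23) and Irgm2 (1.54 ± 0.24) also rose, and Tgtp1 and Tgtp2 are near-identical copies between which reads may be split. Mx1 and Mx2, dynamin-like GTPases driven mainly by type I interferon, had values of −0.88 and −0.64 that did not pass.

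Of the 18 genes of the interferon-gamma axis 3 were higher. Among these were Nlrc5, the transactivator of MHC class I genes (1.60 ± 0.18, limma adjusted p = 0.000514), and Batf2, a transcription factor of activated macrophages (2.40 ± 0.45, limma adjusted p = 0.0182). The other 15 did not pass, among them the ligand Ifng, with 68 reads over the 6 wild-type and 7 over the 6 RAG1-/- tumors (2.23 ± 0.69, limma adjusted p = 0.202), and Irf1 (0.63 ± 0.15, limma adjusted p = 0.0663). The receptor genes Ifngr1 and Ifngr2 had values of −0.03 and −0.33. The median of the axis was 0.31.

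Of the 17 genes of vacuole and inflammasome defence with which these proteins act, 0 were called by limma in this comparison, and the 95% confidence intervals of 2, Casp1 and Il1b, excluded 0 without adjustment. The median was 0.11, and Casp1, the inflammasome protease, had 0.78 ± 0.32 (limma adjusted p = 0.36), Casp4 0.25, Gsdmd 0.33 and Il1b −0.66. Among the marker lists, T cell markers were higher in 6 of 8 tested genes, B cell markers in 1 of 3, and markers of NK cells, macrophages, dendritic cells, endothelium, fibroblasts, epidermis and colon epithelium in 0 by limma. The 13 T cell genes summed to only 8.90 to 37.2 normalized counts in RAG1-/- tumors. Genes near 0 there passed the filter only through the wild-type tumors and could hardly come out lower. Summed macrophage markers overlapped between RAG1-/- (16189 to 27803) and wild-type tumors (22055 to 33483), as did dendritic cell markers (359 to 665 and 570 to 1211) and NK cell markers (119 to 298 and 161 to 448). MC38 cells alone had an NK cell marker sum of 190 to 235, with 9 of the 10 genes at 0 and only Eomes read. NK cell sums of tumors can thus hold cancer cell RNA, and their overlap does not measure NK cells. T cell markers did not overlap, and wild-type day 23 replicate 1 had both their highest sum (394) and the highest value of Gbp2, Gbp3, Gbp4, Gbp5, Gbp7, Gbp8 and Gbp9. The part of any of these cells in the Gbp differences was not tested.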

How the data were processed

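RNA from 16 libraries was sequenced from the 3′ ends of transcripts. The deposited values are a signal, the normalized count, which the authors made per gene by dividing reads by a size factor for each library. Per the labels, tools were cutadapt, Trimmomatic, STAR, Bowtie2, HTSeq and DESeq2, with mm10 as the build. Versions and the strand setting are not given in the sources used here. Within a tolerance of 0.001, 100% of values were whole multiples of 1 read in each library, so reads were recovered (5589151 to 26134241 per library). A second table, with 6 columns of antibody-treated tumors whose names match no single sample label, was not used.

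Values were taken as log2(normalized count + 1), and genes with a mean of at least 5 in the libraries of a fit were tested with limma 3.58.1 (R 4.3.3, trended empirical Bayes, Benjamini-Hochberg over all genes tested, threshold 0.05). The 12 tumors shared one fit for comparisons among tumors, they were fitted with the MC38 cells or with the skin for comparisons with these, and MC38 cells and skin were fitted alone. Single genes were also compared by two-sided exact permutation of libraries. Alternatives were edgeR 4.0.16 and DESeq2 1.42.0 on recovered reads, other pseudocounts (0.1, 5), filters and scalings, no trend, a replicate block, fits of only the groups compared, and each library left out. The scripts were tested on simulated data with known changes. For wild-type against RAG1-/- tumors over both days, limma recovered 53.2% of 2-fold and 100% of 16-fold changes. For MC38 cells against skin it recovered 0% of 2-fold and 65.3% of 16-fold changes. Few genes were changed in the simulation, whereas 62.0% were called in the real data of that comparison, so these shares need not hold there. Poisson intervals and floors of 3 reads cover counting error only.

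All 10 genes were named, with Gbp2b. From each other list up to 4 called genes were named, with Ifng and Irf1, and the 5 genes most like the family. Some results for genes of the lists are not reported here. Other genes were named for their role after their values were seen. The genes and lists were chosen with earlier results of these data known.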

Additional observations from a re-analysis of the deposited data

Results flagged for a closer look

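In 2 genes, 1 wild-type tumor stood far from the other 5 when both days were pooled. Wild-type day 23 replicate 1 had 142 normalized counts of Gbp5, and its gap to the next tumor was 0.797 of the whole range of the 6. The same tumor had 207 normalized counts of Gbp8, with a gap of 0.75 of the range. The limit used for such gaps is one that about 1 in 20 groups pass by chance. It was applied to every listed gene with reads, in the 6 tumors of each genotype, so a pass by chance can occur. Gbp5 and Gbp8 also varied together (Pearson r = 0.93 over the 6 wild-type tumors), so the 2 passes are not separate. This tumor also had the highest summed T cell (394), NK cell (448) and macrophage (33483) marker counts of the 12 tumors, and the part of these was not tested. The NK cell sum was 190 to 235 in MC38 cells alone.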

How the results depend on the processing

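The number of members called in wild-type against RAG1-/- tumors of both days was 2. It became 4 with a pseudocount of 5, with scaling to the same upper quartile, with edgeR and with the replicate block, 6 with DESeq2 and 1 with no trend, and was 2 to 4 with each library left out in turn. At day 23 it was 1, and became 0 with no trend, 6 with DESeq2, 2 with only the groups compared and 0 to 4 with each library left out (4 without wild-type day 46 replicate 3). Leaving out libraries gave 3 to 6 in MC38 cells against skin, 1 to 6 in wild-type tumors against skin and 7 to 8 in wild-type tumors against MC38 cells. The cause was not tested.

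Single members kept their direction in every fit of wild-type against RAG1-/- tumors. Between RAG1-/- tumors of day 23 and day 13, where no member was called, the log2 difference of Gbp3 turned to −0.042 with the same upper quartile, −0.0935 with the same total, −0.011 with edgeR and −0.010 with DESeq2, that of Gbp7 to −0.0062 with the same total, and that of Gbp2 to 0.055 with edgeR and 0.043 with DESeq2. With libraries left out, Gbp2 ranged from −0.37 to 0.25 and Gbp3 from −0.18 to 0.26 there. Against skin, Gbp9 in MC38 cells ranged from −1.79 to 0.32, and in wild-type tumors Gbp5 ranged from −0.46 to 1.82 and Gbp6 from −1.48 to 0.52.

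Over all genes, 105 were called over both days (48 with no trend, 285 with DESeq2, 65 to 171 with libraries left out) and 41 at day 23 (22 with no filter, 15 with no trend, 22 with edgeR, 239 with DESeq2, 5 to 89 with libraries left out). Time gave 0 in wild-type tumors (1 with the same upper quartile, 43 with DESeq2, up to 7 with a library left out) and 0 in RAG1-/- tumors (206 with DESeq2, 23 with only the groups compared, up to 37). Libraries left out gave 1832 to 3781 of 3428 in RAG1-/- tumors and 2172 to 4396 of 4100 in wild-type tumors against MC38 cells, and 6253 to 7400 of 10402 in MC38 cells against skin. The same upper quartile moved the higher share of calls against MC38 cells from 67.6% to 80.3% in RAG1-/- and from 65.5% to 83.3% in wild-type tumors, and the same total moved it from 33.5% to 46.8% in MC38 cells and from 40.0% to 57.7% in wild-type tumors against skin.

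Replicate numbers only name different mice. Deviations of samples with the same number correlated between −0.236 and 0.246 among the tumor groups, and all 3 were above 0.1 only between RAG1-/- day 23 and wild-type day 46 (0.105, 0.208 and 0.135). The replicate block changed no other count of members by over 1.5 times. Fits of only the groups compared were not run for both days and for MC38 cells against skin, where they hold the same libraries.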
